A study of Mus musculus with 6 samples.

Results

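Gzma, Gzmb and Nkg7, which encode 3 proteins of the cytotoxic granule, are 3 of the 12163 genes in a deposited table of mouse fat before and after grafting. In grafts the granzyme genes Gzma and Gzmb stood higher and Nkg7 lower. They were picked by name after their values in this same comparison were known, so their levels are given as a description, with no test. The series holds bulk RNA sequencing of fat from wild type mice of the C57BL/6 strain, with 3 libraries taken at day 7 after grafting and 3 taken before grafting. The submitters describe the libraries of a group as biological replicates, and the labels give no depot, graft site, sex or age, nor whether donor and host were the same animal. Levels are in normalized counts, meaning the reads of a gene after division by the size factor of its library. The listed genes held 13027776 to 15924559 reads per library.

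The adipocyte genes Adipoq, which encodes the hormone adiponectin, and Plin1, which encodes a lipid droplet coat protein, had 139.5 to 630.7 and 205.8 to 1519 normalized counts in grafts, against 29711 to 38979 and 19101 to 23735 before grafting. By its values, the table keeps genes that differ between grafts and fat before grafting: an unadjusted p under 0.05 was found for 10772 of 10854 tested genes, and the 3 libraries of one group lay clear of the other for 97.6% of those tested. Unlisted genes were not analysed here, and their absence is not read as a result. In bulk tissue, fewer cells of a type and less RNA per cell cannot be told apart.

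Cytotoxic lymphocytes, that is, natural killer (NK) cells and effector CD8 T cells, store granzymes in secretory lysosomes and release them onto a target cell together with the pore-forming protein perforin. Granzyme A is a tryptase, granzyme B cleaves after aspartate and can start apoptosis, and NKG7 is a granule membrane protein that supports degranulation. Resting NK cells of mice are known to hold granzyme A and to gain granzyme B protein on activation, and protein was not measured here. Nkg7 is used as a general marker of cytotoxic lymphocytes.

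The sequence before each gene start is shown because the 3 genes, often read as one programme, differed in direction, and Gzmc is added as the neighbour of Gzmb that passed the test. The stretches come from RefSeq on GRCm38.p6, run 5′ to 3′ on the strand of the gene, and lie at chr13:113100982-113101231 (minus), chr14:56262335-56262584 (minus), chr7:43436888-43437072 (plus) and chr14:56234658-56234907 (minus). Capitals mark matches, on either strand, of the 4 motifs searched, so that ACCACA is the Runx core TGTGGT read on the opposite strand.
Gzma: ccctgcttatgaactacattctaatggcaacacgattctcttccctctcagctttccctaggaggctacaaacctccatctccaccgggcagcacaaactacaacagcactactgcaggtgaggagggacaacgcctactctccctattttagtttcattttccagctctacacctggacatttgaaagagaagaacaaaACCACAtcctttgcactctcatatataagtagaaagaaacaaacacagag
Gzmb: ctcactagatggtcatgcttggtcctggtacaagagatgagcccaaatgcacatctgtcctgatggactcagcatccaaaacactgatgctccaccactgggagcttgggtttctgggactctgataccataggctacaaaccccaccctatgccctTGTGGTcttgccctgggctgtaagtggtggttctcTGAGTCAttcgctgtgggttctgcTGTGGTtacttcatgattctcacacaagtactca
Nkg7: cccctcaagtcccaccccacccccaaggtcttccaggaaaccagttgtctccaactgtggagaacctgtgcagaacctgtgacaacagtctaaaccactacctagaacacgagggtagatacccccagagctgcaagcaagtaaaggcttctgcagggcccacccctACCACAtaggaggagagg
Gzmc: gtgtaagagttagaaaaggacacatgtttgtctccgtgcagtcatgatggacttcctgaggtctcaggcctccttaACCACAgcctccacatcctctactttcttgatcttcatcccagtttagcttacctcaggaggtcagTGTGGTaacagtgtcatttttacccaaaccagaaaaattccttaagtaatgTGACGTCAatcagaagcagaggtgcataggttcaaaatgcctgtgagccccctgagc
Each of the 4 promoters held the Runx core TGTGGT on one of its strands, at 50 to 45 bases before the RefSeq start in Gzma, at 93 to 88 and 34 to 29 in Gzmb, at 83 to 78 in Nkg7, and at 174 to 169 and 108 to 103 in Gzmc. The core occurred, on either strand, in 14.0% of 32851 mouse promoters of the same length. Gzmb also held the AP-1 motif TGANTCA at 58 to 52 bases (6.75% of promoters). Gzmc held the CRE sequence TGACGT on both strands, at 57 to 52 and 55 to 50 bases, overlapping (6.47%). Nkg7 held the T-box sequence GGTGTG at 13 to 8 bases (16.3%), outside the stretch printed, which ends where the GENCODE gene begins. These are matches of letters, not measured binding.

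Gzma (ENSMUSG00000023132, chr13:113093825-113100981, minus strand, GRCm38) had 112.5, 151.3 and 247.3 normalized counts in grafts (replicates 1, 2 and 3 in this order, here and below), against 80.9, 65.8 and 63.0 before grafting. Every graft lay above every library before grafting, and the grafts were spread more widely. The means were 170 ± 69.4 in grafts and 69.9 ± 9.61 before grafting (SD, n = 3 each), a ratio of 2.44 and a log2 fold change, grafts over before on log2(value + 1), of 1.21, which was 0.47 with ribosomal protein genes set to no change. The coefficient of variation was 40.7% in grafts and 13.8% before grafting, where read counting alone gives 7.61% and 11.9%.

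Gzmb (ENSMUSG00000015437, chr14:56258838-56262260, minus strand) had 163.7, 208.5 and 213.7 normalized counts in grafts, against 44.4, 36.5 and 46.2 before grafting. Grafts and libraries before grafting were far apart, with the closest pair 117 normalized counts from each other. The means were 195 ± 27.5 in grafts and 42.4 ± 5.18 before grafting (SD, n = 3 each), a ratio of 4.61 and a log2 fold change of 2.18. Scaling to unchanged ribosomal protein genes gave 1.44. The coefficient of variation of Gzmb was 14.1% in grafts and 12.2% before grafting, where counting gives 7.11% and 15.3%.

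Nkg7 (ENSMUSG00000004612, chr7:43437073-43438249, plus strand) ran the other way, with 36.2, 95.04 and 100.9 normalized counts in grafts, against 290.9, 192.5 and 229.2 before grafting. All 3 grafts lay below all 3 libraries before grafting, and graft replicate 1 was the lowest. The means were 77.4 ± 35.8 in grafts and 238 ± 49.7 before grafting (SD, n = 3 each), a log2 fold change of -1.72, with the level before grafting 3.07 times that of grafts. With ribosomal protein genes at no change the log2 fold change was -2.46. Graft replicate 1 was the lowest of the grafts for all 3 genes. The coefficient of variation of Nkg7 was 46.3% in grafts and 20.9% before grafting, where counting gives 11.3% and 6.46%.

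**Figure D1:**
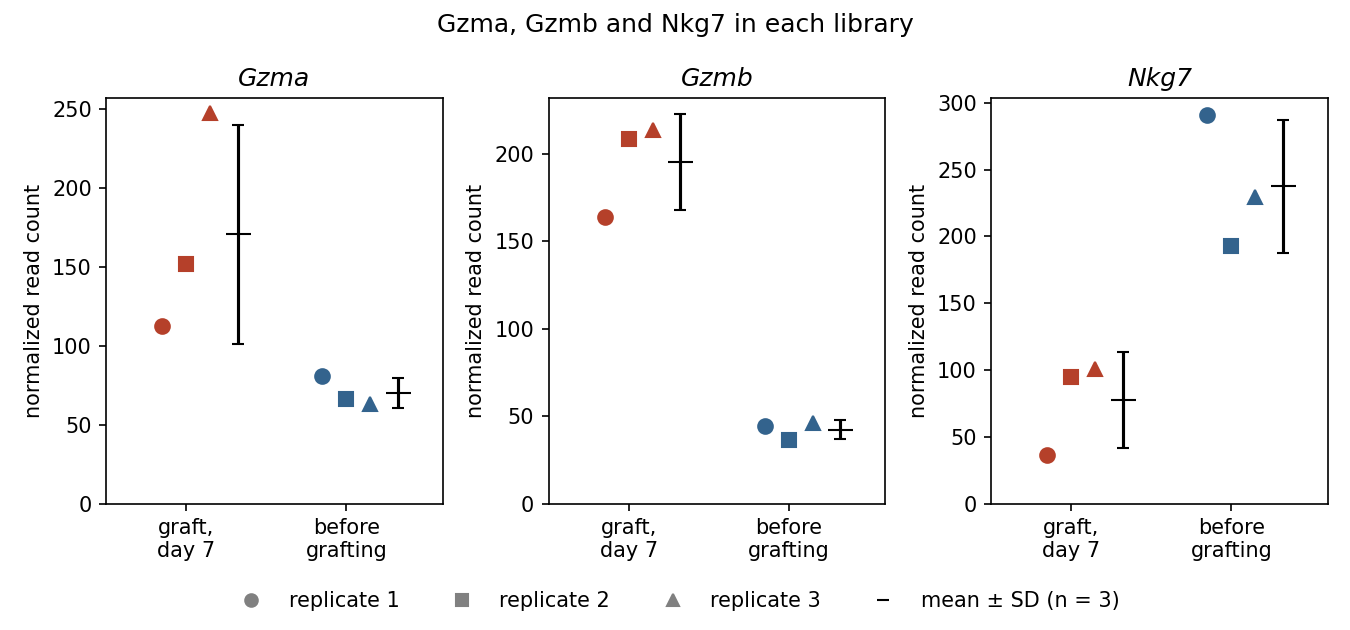
Normalized read count (linear axis from 0) of Gzma, Gzmb and Nkg7 in each of 3 grafts at day 7 and 3 libraries before grafting, one panel a gene; symbols mark replicates and bars the mean ± SD. Grafts sit above the other libraries for Gzma and Gzmb and below them for Nkg7, with no overlap in any panel.

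All 3 genes passed the filter on low values (at least 10 in at least 3 libraries) in both groups, with 36 to 295 reads per library. No member overlaps another gene in the annotation, and 0% of the 50-base windows of their transcripts recur in another gene. None of their groups overlapped, which in this table also held for 97.6% of tested genes, so nothing is read from it.

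Levels of the 3 genes were compared with each other per length. Per kilobase, grafts had 169 ± 69.0 normalized counts of Gzma, 136 ± 19.1 of Gzmb and 84.6 ± 39.2 of Nkg7. Before grafting the values per kilobase were 69.5 ± 9.55 for Gzma, 29.5 ± 3.61 for Gzmb and 260 ± 54.4 for Nkg7 (SD, n = 3 each). Nkg7 was thus the highest of the 3 in every library before grafting and the lowest in every graft. In grafts the means of Gzma and Gzmb differed by less than the SD of Gzma but by more than that of Gzmb. Before grafting Gzma was above Gzmb in each library.

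The 6 listed granzymes did not shift together. Gzmb made up 35.7 ± 4.56% of their summed level per kilobase in grafts and 22.04 ± 2.64% before grafting, while Gzma made up 42.7 ± 7.72% in grafts and 51.7 ± 3.13% before grafting. Gzmm, a granzyme of NK and unconventional T cells, made up 2.19 ± 0.647% in grafts and 16.8 ± 2.05% before grafting (SD, n = 3 each).

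The other genes of the granule come from a list of 17, of which 10 were listed and 8 tested with limma, which fits a linear model to each gene and shares variance among genes. At a Benjamini-Hochberg adjusted p under 0.05, 5 were higher in grafts and 1 was lower. Among all tested genes 41.3% were called higher and 39.2% lower, and 80.4% in either direction. The median log2 fold change was 1.45 for the 8 tested granule genes and 0.28 for all tested genes. The calls of all tested genes were 51.3% higher as deposited, 41.1% with equal upper quartiles and 25.3% with ribosomal protein genes set to no change. With 1 library before grafting left out, 2770 to 2948 genes were called lower in place of 4251. The filter still asked for 3 libraries, so genes high enough only before grafting were then not tested. That left 10162 to 10166 tested genes in place of 10854.

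Gzmc, a granzyme beside Gzmb, rose, at a log2 fold change of 2.17 (SE 0.40, limma adjusted p = 0.0056). It had 37.2, 74.7 and 54.4 normalized counts in grafts, against 13.8, 7.09 and 13.8 before grafting, and the groups did not overlap. Of its 50-base transcript windows 4.14% recur in Gzmd, Gzme or Gzmg, so its reads may be shared in part. Gzme had 10.04, 2.91 and 8.90 normalized counts in grafts, against 0 in each library before grafting, at least 2.44-fold higher with 3 reads per library as the floor, which covers counting error only. Gzmn, at 0, 11.6 and 2.97 in grafts and 0 before grafting, rested on graft replicate 2, without which its graft mean was 1.48 in place of 4.87. Neither was high enough to be tested.

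Granule genes that many myeloid cells also express rose too: Srgn, the serglycin proteoglycan on which granzymes are packed, by 3.37 on the log2 scale (SE 0.20, limma adjusted p = 1.31e-05) and Ctsl, a lysosomal cysteine protease, by 2.44 (SE 0.15). Ctsc, the cathepsin that cuts granzymes into their active form, and Lamp1, a lysosomal membrane protein, were the others called higher, and Lamp1 lost its call with ribosomal protein genes at no change. Ctsw, a cathepsin of NK and cytotoxic T cells, fell, at a log2 fold change of -1.97 (SE 0.33, limma adjusted p = 0.00365). Ctsw had 49.2, 106.7 and 68.2 normalized counts in grafts, against 385.5, 203.6 and 285.3 before grafting, and the groups did not overlap.

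Gzmm and Cst7, a cystatin of cytotoxic lymphocytes, missed the threshold. Gzmm had 7.03, 17.5 and 13.8 normalized counts in grafts, against 42.4, 30.4 and 27.5 before grafting (log2 fold change -1.38, limma adjusted p = 0.0564). Cst7 had 10.04, 31.0 and 26.7 in grafts, against 119.3, 38.5 and 83.6 before grafting (log2 fold change -1.79, limma adjusted p = 0.0623). Both were called lower with the listed totals made equal, Gzmm also without graft replicate 2 and Cst7 without replicate 2 before grafting. Prf1, the perforin gene, Gzmk and Serpinb9, the inhibitor of granzyme B, are outside the table and were not analysed here.

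Granule exocytosis genes gave 6 higher and 1 lower of 10 tested (15 on the list). All tested genes gave 41.3% higher, 39.2% lower and 80.4% in either direction, so the number called is not read as a result. Stx11, a syntaxin needed for lymphocyte degranulation, rose by 3.54 on the log2 scale (SE 0.22), Vamp8, a vesicle SNARE, by 1.37 (SE 0.10), and Snap23, its partner on the plasma membrane, by 1.23 (SE 0.09). Sytl1, a Rab27 effector, fell by -3.60 (SE 0.34, limma adjusted p = 0.000149). With ribosomal protein genes at no change the list gave 3 higher and 3 lower: Stxbp2, Vamp7 and Was were no longer called, Sytl3 was called lower, and Ap3b1, at a log2 fold change of 0.32 as deposited, was called lower at -0.43. Sytl3, which missed the threshold (limma adjusted p = 0.0518), was also called lower after median ratios, equal totals, equal upper quartiles, TMM, with no filter or with a pseudocount of 5. These genes also serve secretion in myeloid cells, of whose markers 13 of 15 macrophage genes and 8 of 10 neutrophil genes tested were called higher. The other neutrophil genes, Elane and Prtn3, granule proteases made by bone marrow precursors, fell, at -3.76 and -2.23 on the log2 scale. The graft mean of Elane was 0.970 without graft replicate 3 and 2.30 with it. Macrophage genes summed to 217926 to 237118 normalized counts in grafts, against 30374 to 35318 before grafting, and neutrophil genes to 58404 to 93681 in grafts, against 1023 to 1089 before grafting, and the part of either in these levels was not tested.

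NK cell genes did not follow Gzma and Gzmb as a group. Of 32 names, 12 were listed and 11 tested, with 3 higher, 2 lower and a median log2 fold change of -1.25. At an unadjusted p under 0.05, limma gave 7 lower and 3 higher. All tested genes gave 41.3% higher, 39.2% lower and 80.4% in either direction, with a median of 0.28. At that unadjusted p they gave 99.2% in either direction, so the number called is not read as a result. The receptor chain Klrd1 (CD94) had 31.1, 105.7 and 87.05 normalized counts in grafts, against 187.3, 129.7 and 203.6 before grafting (log2 fold change -1.35, limma adjusted p = 0.0882). Klrk1, which encodes NKG2D, had 69.3, 186.2 and 102.9 in grafts, against 326.4, 190.5 and 293.1 before grafting (log2 fold change -1.25, limma adjusted p = 0.0566). In both genes the grafts lay below every library before grafting, with graft replicate 2 the closest.

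Eomes, a transcription factor of NK and memory T cells, fell by -1.77 (SE 0.33, limma adjusted p = 0.00617), and the adhesion receptor gene Cd226 by -2.90 (SE 0.27). The interleukin 2 and 15 receptor chain Il2rb missed the threshold at -1.36 (limma adjusted p = 0.0558). The genes called higher were Il18rap, a chain of the interleukin 18 receptor, at 3.70 (SE 0.24), the SLAM family receptor Cd244a at 2.31 (SE 0.21) and the integrin gene Itga2 at 1.43 (SE 0.17), all of which are also known in other cells. Without graft replicate 2, 5 NK cell genes were called lower in place of 2, and 4 were with the listed totals made equal. Ncr1 and Klrb1c, defining NK receptors, are outside the table and were not analysed here.

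T cell genes fell almost throughout: of 35, 33 were listed and 32 tested, with 30 lower, 0 higher and a median log2 fold change of -3.27, or 9.67-fold lower. At an unadjusted p under 0.05, limma gave 31 lower and 0 higher. For all tested genes the shares were 39.2% lower and 41.3% higher, and 99.2% in either direction at that unadjusted p. The number called in either direction is therefore not read as a result. The lower level of T cell genes was known from earlier results of these data. Cd8b1 fell, at a log2 fold change of -5.71 (SE 0.63), Cd8a, the other chain of the CD8 co-receptor, by -4.83 (SE 0.45) and Lef1, a factor of naive T cells, by -4.66 (SE 0.46, limma adjusted p = 0.000201). The graft mean of Cd8b1 was 4.999 without graft replicate 2 and 12.1 with it, and that of Lef1 was 10.5 without it and 17.0 with it. Cd3e fell by -4.47, Cd3g by -3.37, the receptor constant gene Trac by -3.22, the kinase gene Lck by -3.14 and Cd4 by -3.01.

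Gzma and Gzmb had higher log2 fold changes than all 32 tested T cell genes, and Nkg7 than 31 of them. The exception was Trdc, the constant region of the delta chain of the γδ T cell receptor, with 52.2, 169.7 and 107.8 normalized counts in grafts, against 55.2, 22.3 and 69.8 before grafting. Its groups overlapped and its log2 fold change of 1.14 missed the threshold (limma adjusted p = 0.326). The listed constant genes of the gamma chain of that receptor went the other way. Tcrg-C2 fell by -2.64 (limma adjusted p = 0.0315), a call lost when any library before grafting was left out. Tcrg-C1 missed the threshold at -1.83 (limma adjusted p = 0.0776). Tcrg-C4, too low to be tested, averaged 5.58 in grafts and 16.2 before grafting. Among the 11 tested NK cell genes, 8 lay below Gzma and 9 below Gzmb, but 2 below Nkg7. The members were chosen on this same comparison with the fall of T cell genes known, so these ranks are a description only.

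**Figure D2:**
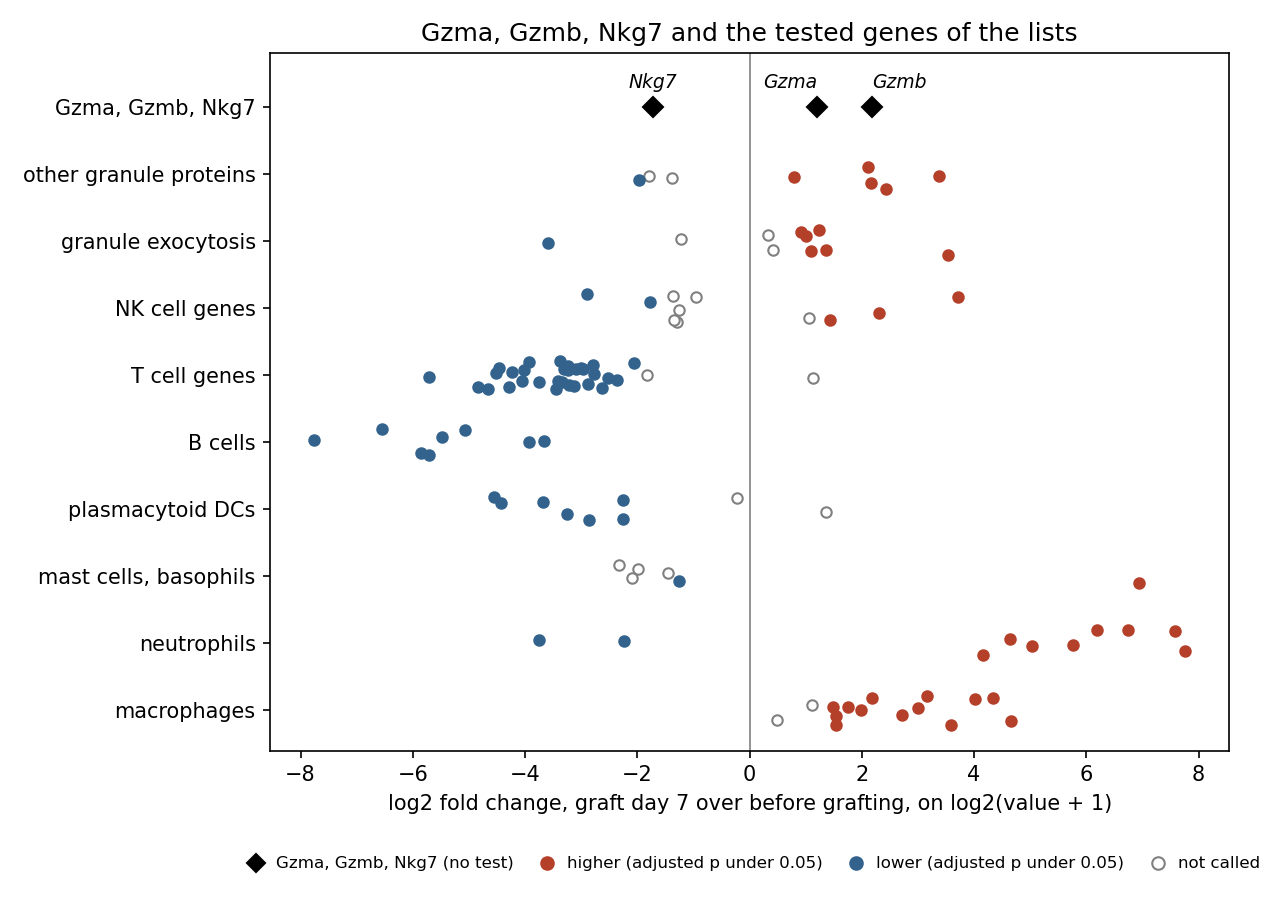
Log2 fold change, grafts over before grafting on log2(value + 1), of Gzma, Gzmb and Nkg7 (black diamonds, no test) and of each tested gene of 9 lists (points; filled where the limma adjusted p was under 0.05). Gzma at 1.21 and Gzmb at 2.18 lie right of every T cell gene, and Nkg7 at -1.72 lies beside Ctsw, Cst7 and Eomes. The members were chosen on this comparison, so their places are a description only.

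Set against the 3 CD3 chain genes of the same library (Cd3d, Cd3e and Cd3g), all 3 members were higher in grafts. Per 100 CD3 reads, Gzmb had 370, 106 and 169 in grafts, against 2.45, 3.27 and 3.28 before grafting. Gzma had 255, 77.2 and 195 in grafts, against 4.46, 5.90 and 4.46 before grafting. Nkg7 had 81.8, 48.5 and 79.7 in grafts, against 16.1, 17.2 and 16.2 before grafting, so its own lower level in grafts was a smaller drop than that of the CD3 chains. Those chains summed to 44.2, 196 and 127 normalized counts in grafts, against 1812, 1116 and 1411 before grafting, and the graft ratios rest on these low sums. With the members chosen on this comparison and the fall of T cell genes known, higher ratios follow from the choice and are a description only.

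**Figure D3:**
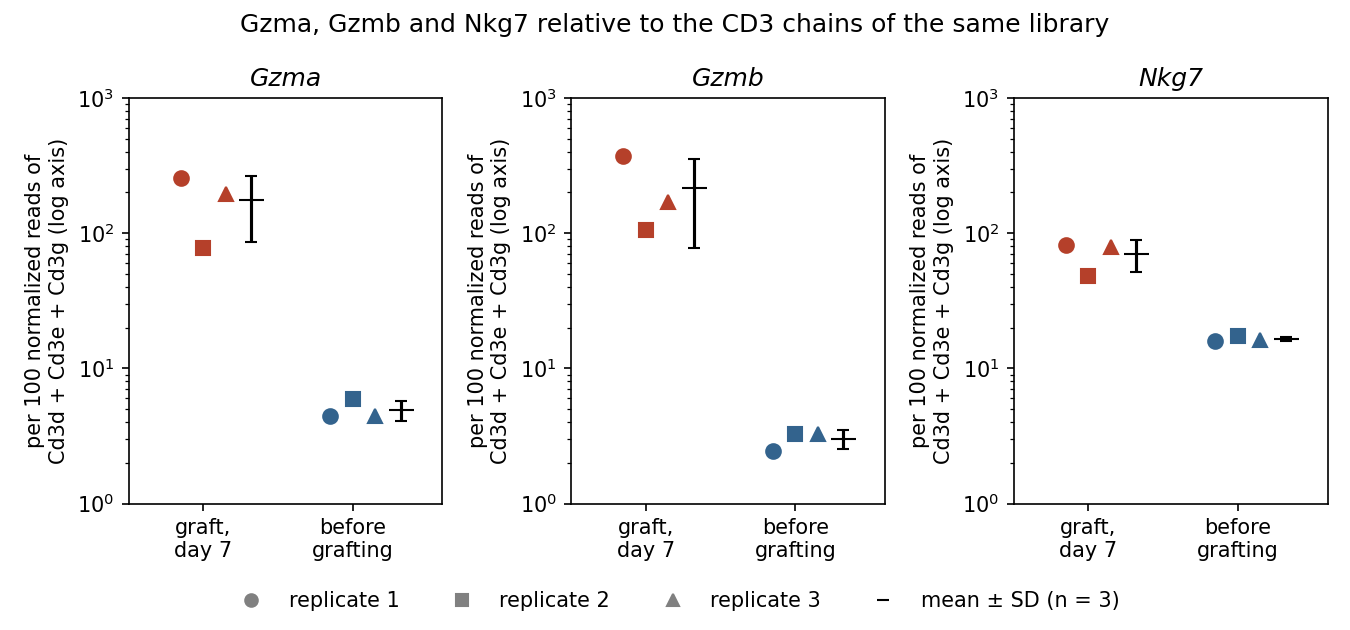
Normalized counts of Gzma, Gzmb and Nkg7 per 100 of Cd3d, Cd3e and Cd3g together, by library, on log axes from 1 to 1000, with the mean ± SD of 3 grafts at day 7 and 3 libraries before grafting. Every graft lies above every library before grafting in all 3 panels, with the narrowest gap for Nkg7. The members were chosen with the fall of T cell genes known, so this is a description only.

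Against the NK receptor genes Klrd1 and Klrk1 the 3 members parted. Per 100 reads of these, Gzmb had 163, 71.4 and 112.5 in grafts, against 8.64, 11.4 and 9.31 before grafting, and Gzma had 112, 51.8 and 130 in grafts, against 15.7, 20.6 and 12.7 before grafting. Nkg7 had 36.0, 32.6 and 53.1 in grafts, against 56.6, 60.1 and 46.1 before grafting, and its groups overlapped. These receptors are also expressed by some T cells, and these ratios, too, are a description only.

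Other cell types known to carry granzymes or their relatives moved in several ways. Plasmacytoid dendritic cells make granzyme B in humans, and their genes gave 7 lower and 0 higher of 9 tested (limma, 8 and 0 at an unadjusted p under 0.05), with Siglech at a log2 fold change of -3.68 (SE 0.39). For all tested genes the shares were 39.2% lower, 41.3% higher and, at that unadjusted p, 99.2% in either direction. Lag3, 1 of the 7 lower genes, is also on the list of inhibitory receptors of lymphocytes below. Of 6 tested mast cell and basophil genes, Hdc, the histidine decarboxylase also found in neutrophils, was higher at 6.93 and Gata2 lower at -1.25, and 4 missed the threshold. Those 4 (Mcpt4, Cma1, Cpa3 and Tpsb2) were all called lower without graft replicate 3, which made 5 lower, and Mcpt4 and Cpa3 without graft replicate 1, which made 3. Cpa3, a mast cell protease gene, had 25.1, 116.4 and 184.0 normalized counts in grafts, against 324.4, 305.9 and 355.1 before grafting (log2 fold change -1.99, limma adjusted p = 0.0876), and its graft mean was 70.7 without graft replicate 3 and 108 with it. B cell genes gave 8 lower of 8 tested. The summed level of the T cell list was 948.1 to 2618 normalized counts in grafts, against 11443 to 19431 before grafting, and the part of any of these cells in the granzyme levels was not tested.

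Transcription factors of effector lymphocytes gave 5 higher and 6 lower of 12 tested, where all tested genes gave 41.3% higher and 39.2% lower. Zeb2 and Id2 were not called with ribosomal protein genes at no change, which left 3 higher. Prdm1, which encodes BLIMP-1, rose by 2.94 on the log2 scale (SE 0.21) and Batf, an AP-1 factor, by 2.83 (SE 0.25). The 5 higher genes averaged 861 (Prdm1), 8021 (Zeb2), 1261 (Id2), 1737 (Nfil3) and 594 (Batf) normalized counts in grafts. The 3 CD3 chain genes together averaged 122 there, and which cells held the transcripts of these factors was not tested. Tox fell by -3.91 (SE 0.33), Irf4 by -3.23 (SE 0.30) and Zfp683, which encodes HOBIT, by -3.11 (SE 0.43). Tbx21, which encodes T-bet, is outside the table and was not analysed here.

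Cytokines that arm granzyme expression, with their receptors, gave 3 higher, 1 lower and 6 that missed the threshold of 10 tested. The shares of all tested genes were 41.3% higher and 39.2% lower. Ebi3, a subunit of interleukin 27, rose by 2.21 (SE 0.20) and Il18 by 1.66 (SE 0.17), with Il18rap as above, and Il27ra fell by -2.83 (SE 0.26). With ribosomal protein genes at no change, Il2rb, Il15ra, Il18r1 and Il21r were also called lower, which made 5, and the other scalings gave 2 or 3. Leaving out graft replicate 2 (Il2rb), graft replicate 3 (Il15ra) or replicate 2 before grafting (Il21r) made 2 lower. Il15 is outside the table and was not analysed here. Cytokines that effector lymphocytes release gave 3 higher and 3 lower of 7 tested (all tested genes: 41.3% and 39.2%). Ccl3 (9.90, SE 0.38), Ccl4 (8.38, SE 0.42) and Tnf (4.32, SE 0.20), which macrophages also make, rose, and Lta (-2.87, SE 0.51) and Ltb (-2.23, SE 0.25), of lymphocytes, fell. Ccl4 averaged 12.7 before grafting and 8.37 without replicate 2 before grafting. Ifng is outside the table and was not analysed here.

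Gzmb lies in a cluster of granzyme and mast cell protease genes. Of 22 genes within 200000 bases of its start, 6 were listed, Gzmb among them. Gzmb, Gzmc, Gzmn, Gzme and Mcpt8, a basophil protease, had higher means in grafts, and Mcpt4, a mast cell protease, had 20.1, 108.6 and 194.9 normalized counts in grafts, against 450.6, 351.5 and 360.0 before grafting (limma adjusted p = 0.0751, and 0.00742 without graft replicate 1 and 0.0166 without graft replicate 3). The graft means of Mcpt4 and Mcpt8 rested on graft replicate 3, without which they were 64.4 in place of 107.9 and 2.44 in place of 5.91. Around Gzma 5 of 19 genes were listed, and around Nkg7 14 of 24.

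**Figure D4:**
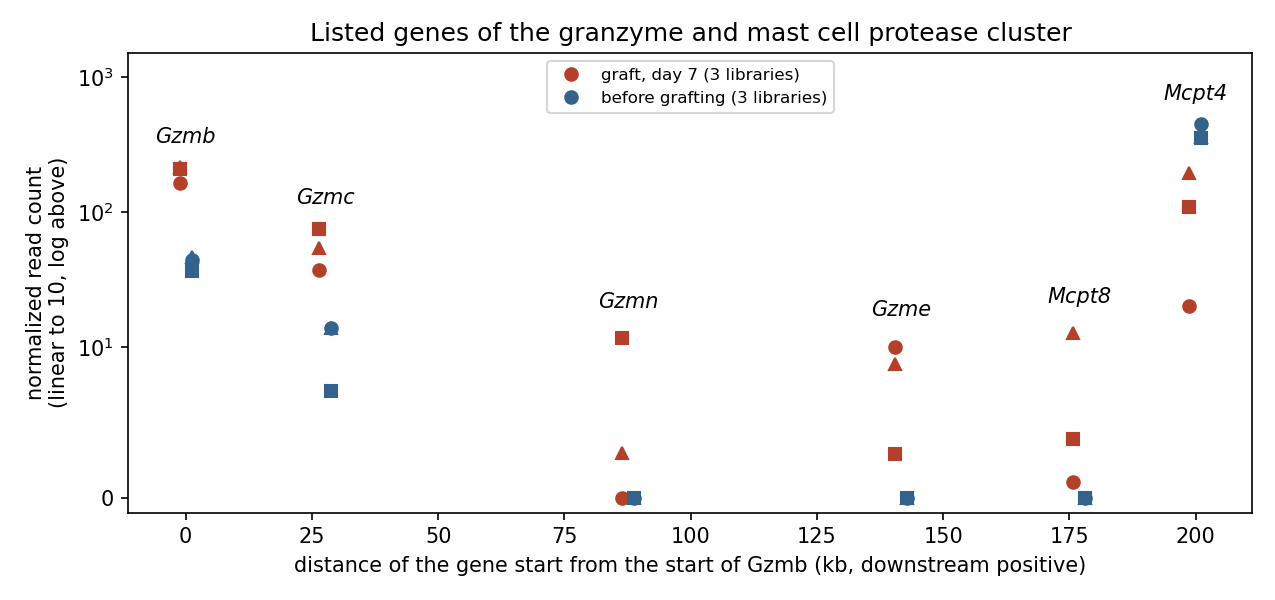
Normalized read count (linear to 10, log above) of the 6 listed genes within 200000 bases of Gzmb, by distance in kb of each gene start from that of Gzmb, in 3 grafts at day 7 and 3 libraries before grafting (symbols mark replicates). The granzymes lie higher in grafts apart from Gzmn, at 0 in graft replicate 1, and Mcpt4 lies lower in every graft.

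Genes whose profile over the 6 libraries was most like each member were ranked by the root mean square difference of centred log2(value + 1), among 9557 genes. For Gzmb they were Pde4b (0.0630), a cAMP phosphodiesterase, Wsb1 (0.0796) and the phosphatase gene Ptpre (0.0943). For Gzma they were Rrad (0.115), Podxl2 (0.126) and Lilra5 (0.127). For Nkg7 they were the guanylate-binding protein gene Gbp8 (0.167), the class I histocompatibility gene H2-Q7 (0.185), whose reads can be shared with close copies, and Efcc1 (0.190). With 6 libraries in 2 groups, such likeness mostly reflects the size of the difference between groups.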

How the data were processed

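Total RNA was extracted with Trizol and sequenced with Illumina protocols, per the labels' protocols. The authors deposited a signal per gene: its reads over the size factor of the library. No label says so, but all values of a library were whole multiples of a single step within 0.01 reads (steps 0.970 to 1.013). The authors' 2 group means, also a deposited signal, were not used, and the other deposited column, gene length in bases, gave levels per kilobase. The submitters' processing notes name Bowtie 0.12.2, HISAT2 2.0.5, mm8 and mm9; the coordinates given here are GENCODE M21 on GRCm38. Which counter, strand setting and gene filter the authors used is not given in the sources used here. Whole reads follow from these steps, but the steps of graft replicates 1 and 3 lie so near 1 that the unit check applied did not accept them as recovered, and the planned count models were not run.

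The model, limma 3.58.1 under R 4.3.3 (trend, robust), took log2(value + 1) with group as its single term and two-sided tests. Genes needed 10 or more in 3 or more libraries. Benjamini-Hochberg adjustment ran over 55450 annotated genes, with unlisted ones entered as unchanged, at a threshold of 0.05. Of 12163 listed genes, 12151 were in the annotation. Tables were handled in Python 3.11.15. Titles carry numbers 1 to 3, but same-numbered libraries correlated, after removing group means, at -0.157, -0.127 and 0.0407, so the numbers were not taken as pairs.

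The members and lists were chosen with earlier results of these data known. Named are the members, genes fixed with the lists and the 3 genes nearest in profile. From each list at most 3 called genes are named in the direction with more calls and 2 in the opposite one. The genes around Gzmb, Trdc, the gamma chain genes and single exceptions were named after their values were seen. Alternatives were other scalings, pseudocounts, filters, adjustment, a replicate block and leaving out each library.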

Additional observations from a re-analysis of the deposited data

How the results depend on the processing

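Gzma, Gzmb and Nkg7 kept their directions under all 16 alternatives run for each. Most of these could not reverse them. The groups did not overlap, so leaving out a library or changing the pseudocount keeps the direction. Other filters and the replicate block leave the fold change as it was. Only rescaling could have changed the direction of these genes. Setting ribosomal protein genes to no change moved their log2 fold changes to 0.47, 1.44 and -2.46 and the median of all tested genes to -1.01, where the median crossed a gap, since 51 of 10854 tested genes lay within 0.25 of 0 as deposited; 1897 genes were then called higher. Leaving out 1 library gave 0.90 to 1.46 for Gzma, 2.07 to 2.30 for Gzmb and -1.98 to -1.25 for Nkg7, and 3338 to 3982 genes higher and 2770 to 3978 lower.

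Lower calls among the other granule genes numbered 3, in place of 1, after rescaling by median ratios, equal totals, equal upper quartiles or ribosomal protein genes, with a pseudocount of 5, or adjusted over tested listed genes, 2 with TMM or no filter, and 1 to 2 without a library. Lower calls among NK cell genes numbered 4, in place of 2, after median ratios, equal totals, equal upper quartiles, TMM or no filter, 8 with ribosomal protein genes at no change, 7 adjusted over tested listed genes, and 2 to 5 without a library. T cell genes gave 27 to 32 lower and 0 higher throughout. The cause of these changes was not tested.

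With the replicate number as a block, 3912 genes were called higher and 3644 lower; the libraries share a number only, and not every library correlated best with its own number. The planned count models were not run. Depth limits Gzme, Gzmn and Mcpt8, each at 0 reads before grafting, and intervals and floors cover counting error only.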

Other observations

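Ligands of NKG2D, the receptor that lets NK cells and T cells sense stressed cells, were listed for 3 of 9 genes and all 3 rose. Of all tested genes 41.3% were called higher and 39.2% lower. Raet1d had 103.4, 128.0 and 119.7 normalized counts in grafts, against 0, 0 and 1.97 before grafting, a ratio of 178 (95% counting interval 48.6 to 1466). Raet1e rose by 3.39 on the log2 scale (SE 0.31, limma adjusted p = 0.00012) and Ulbp1 by 1.54 (SE 0.18, limma adjusted p = 0.000553). Raet1 genes are close copies of each other, and their separate values are uncertain.

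Serpins that inhibit granzymes or related proteases gave 3 higher and 1 lower of 5 tested (all tested genes: 41.3% and 39.2%). Serpina3g rose by 1.71 (SE 0.23), Serpinb6a by 1.02 (SE 0.10) and Serpina3n, an inhibitor of granzyme B in mice, by 0.78 (SE 0.17, limma adjusted p = 0.0121), and Serpinb6b fell by -1.13 (SE 0.28, limma adjusted p = 0.0246). The call of Serpina3n was lost without replicate 1 or 3 before grafting (adjusted p 0.0571 and 0.0623) and that of Serpinb6b under the replicate block (0.0855) and without graft replicate 1 or 3 or replicate 1 or 3 before grafting (0.0661 to 0.11). With ribosomal protein genes at no change, Serpinb6a and Serpina3n were not called.

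Inhibitory receptors of lymphocytes gave 2 higher and 3 lower of 5 tested (all tested genes: 41.3% and 39.2%). Havcr2, which encodes TIM-3 and is also found on myeloid cells, rose by 2.85 (SE 0.19) and Cd200r1 by 2.22 (SE 0.21). Btla fell by -4.22 (SE 0.36), Cd96 by -4.05 (SE 0.44) and Lag3 by -2.25 (SE 0.35). The graft mean of Cd96 was 6.97 without graft replicate 2 and 11.4 with it.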
